A study of Mus musculus with 4 samples.

Results

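The unfolded protein response and the integrated stress response were followed through 10 genes in progenitor-like cells grown from mouse liver. The genes were chosen by name, as textbook sensors, transcription factors, targets and feedback regulators of these pathways. Earlier results of these data were known when they were chosen. All 10 were among the 21878 rows of the count tables and among the 12332 genes with enough reads to test. The series compared cells grown out of hepatocytes (HepLPC, n = 2 libraries) with cells derived from non-parenchymal liver cells (NPC_LPC, n = 2 libraries). Both came from C57BL/6 mice labelled 6 to 8 weeks old (8 weeks in the protocol) and both were cultured in transition and expansion media. For the hepatocyte preparation the protocol names tdTomato mice given AAV8-TBG-Cre, a virus that carries Cre under a hepatocyte promoter. For the non-parenchymal preparation it names AlbCreERT/R26GFP mice, in which a drug-inducible Cre is driven by the albumin promoter. Where each line served the preparation it is listed for, line and virus cannot be told apart from origin. No label states that replicates were independent mice or cultures, and p-values therefore measure only the spread between these libraries. Total counts were 18123118 and 17575998 in HepLPC and 17919947 and 20625957 in NPC_LPC.

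Cells that secrete much protein, as liver cells do, fold it in the endoplasmic reticulum (ER), and 3 sensors there watch for unfolded protein. Atf6 encodes one of them, a membrane-bound transcription factor that is cut free under stress. IRE1 (gene Ern1) splices the messenger RNA of Xbp1, and PERK (gene Eif2ak3) phosphorylates the initiation factor eIF2. The same phosphorylation by GCN2 (Eif2ak4, amino acid shortage), HRI (Eif2ak1, haem shortage and mitochondrial stress) or PKR (Eif2ak2, double-stranded RNA) makes up the integrated stress response. It slows translation in general but favours that of Atf4. ATF4 then drives genes for amino acid supply (Asns) and glutathione turnover (Chac1), and the regulators Ddit3, Trib3 and Ppp1r15a, while ATF6 and spliced XBP1 drive the ER chaperones Hspa5 and Hsp90b1. The gene counts show none of eIF2 phosphorylation, Xbp1 splicing, ATF6 cleavage or Atf4 translation.

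The promoters of 5 of the genes are shown because each holds a match to 1 of the 5 motifs searched. Promoters of 9 of the 10 genes were found in a RefSeq table on GRCm38.p6, the assembly called mm10. The 250 bases before each start were searched on both strands for 5 motifs. These were the ER stress response element (ERSE, CCAAT and CCACG with 9 bases of any kind between them), its variant ERSE-II (ATTGG and CCACG with 1 base between them), the unfolded protein response element TGACGTGG, the C/EBP-ATF response element TGATGNAA that ATF4 can bind, and the cyclic AMP response element TGACGTCA. The unfolded protein response and cyclic AMP elements share the letters TGACGT, and no match overlapped a match to another motif. Capitals mark the matches.
Asns (chr6:7693210-7693459, - strand): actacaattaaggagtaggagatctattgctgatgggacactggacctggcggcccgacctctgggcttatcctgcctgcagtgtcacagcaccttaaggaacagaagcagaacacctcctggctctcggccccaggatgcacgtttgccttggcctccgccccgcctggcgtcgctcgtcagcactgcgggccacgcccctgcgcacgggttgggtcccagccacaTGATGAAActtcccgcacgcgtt
Chac1 (chr2:119350992-119351241, + strand): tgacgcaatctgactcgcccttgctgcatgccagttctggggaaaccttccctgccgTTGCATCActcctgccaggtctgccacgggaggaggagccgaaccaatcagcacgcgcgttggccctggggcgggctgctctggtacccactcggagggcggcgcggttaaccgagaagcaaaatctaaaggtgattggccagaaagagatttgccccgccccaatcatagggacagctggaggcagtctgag
Hspa5 (chr2:34771840-34772089, + strand): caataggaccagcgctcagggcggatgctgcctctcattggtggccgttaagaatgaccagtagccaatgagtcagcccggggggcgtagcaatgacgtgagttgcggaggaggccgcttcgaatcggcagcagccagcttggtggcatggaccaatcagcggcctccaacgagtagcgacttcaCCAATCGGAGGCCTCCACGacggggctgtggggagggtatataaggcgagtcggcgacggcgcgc
Hsp90b1 (chr10:86705445-86705694, - strand): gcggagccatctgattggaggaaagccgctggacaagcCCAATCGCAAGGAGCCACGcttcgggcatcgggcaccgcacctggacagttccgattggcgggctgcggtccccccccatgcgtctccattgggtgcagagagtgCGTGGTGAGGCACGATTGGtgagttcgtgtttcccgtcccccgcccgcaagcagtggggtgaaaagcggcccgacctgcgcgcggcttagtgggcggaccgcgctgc
Ppp1r15a (chr7:45526269-45526518, - strand): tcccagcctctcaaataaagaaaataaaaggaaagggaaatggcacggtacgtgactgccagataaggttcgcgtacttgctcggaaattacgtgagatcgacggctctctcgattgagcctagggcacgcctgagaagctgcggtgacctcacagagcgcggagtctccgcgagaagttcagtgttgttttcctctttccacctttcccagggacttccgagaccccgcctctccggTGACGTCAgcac
Among all 32851 promoters in the table, 3.45% held the C/EBP-ATF element, 0.113% the ERSE, 0.0304% its variant, 0.563% the unfolded protein response element and 1.55% the cyclic AMP element. Asns held the C/EBP-ATF element at bases -23 to -16 from the start, and Chac1 held it on the opposite strand at -193 to -186. Hspa5 held an ERSE at -65 to -47, and Hsp90b1 had matches at -212 to -194 and, on the opposite strand, at -107 to -89. Ppp1r15a, which encodes the phosphatase subunit GADD34, held the cyclic AMP element at -12 to -5. No motif of the 5 was found in these windows of Atf4, Ddit3, Xbp1 and Trib3. A match describes letters and not binding.

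Transcript levels of the 10 genes spanned a wide range when scaled by length (FPKM, fragment counts corrected for gene length and depth). The chaperones Hsp90b1 (GRP94) and Hspa5 (BiP) averaged 305 and 294 FPKM over the 4 libraries, and Atf4 257. The asparagine synthetase gene Asns followed at 93.4 FPKM, Xbp1 at 31.7 and Ppp1r15a at 24.7. Chac1 and Atf6 both averaged 13.0 FPKM, Trib3 9.35 and Ddit3 5.74. In FPKM the place of Atf4 in this order differed with origin. It was at 322 and 394 FPKM in HepLPC replicates 1 and 2, above Hsp90b1 (277 and 335) and Hspa5 (271 and 318) of the same libraries. In NPC_LPC Atf4 was at 192 and 120 FPKM, below Hsp90b1 (259 and 350) and Hspa5 (268 and 321). This order turns in part on the length used. Per kilobase of annotated exons, a scale chosen after the data were seen, Atf4 was at 270.3 and 326 CPM in HepLPC, below Hsp90b1 (399 and 437) and above Hspa5 (227.5 and 253) of the same libraries. On that scale Atf4 was at 159 and 99.6 CPM in NPC_LPC, again below both Hsp90b1 (355.5 and 463) and Hspa5 (222 and 266). The low FPKM of Ddit3 does not match its counts. Count and FPKM together imply a length of 6500 bases, 3.79 times the 1713 bases of its annotated exons, a ratio reached by 0.829% of 8803 genes with at least 100 counts in every library. Ddit3 overlaps its antisense neighbour Mars by 68 bases. Mars had 2584 and 3303 counts in HepLPC, against 1426 and 1664 in NPC_LPC, and Ddit3 had 615 and 883 counts in HepLPC, against 762 and 455 in NPC_LPC. Whether Mars reads take part in the count was not tested. Per kilobase of annotated exons Ddit3 was at 19.9 and 29.0 CPM in HepLPC, above Trib3 (11.7 and 14.05). The ratio was 1.85 for Ppp1r15a, reached by 7.45% of those genes, 1.36 for Hsp90b1 and 0.836 for Atf4. The antisense neighbour of Ppp1r15a, Tulp2, had at most 2 counts.

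Among the 10 genes, most of the integrated stress response had higher values in HepLPC, and the ER-resident chaperones Hspa5 and Hsp90b1 differed little. Atf4, Ppp1r15a, Trib3, Asns and Chac1 were 2.29-fold to 4.02-fold higher in HepLPC by mean CPM (counts scaled by library size), with both HepLPC libraries above both NPC_LPC libraries. Hspa5, Hsp90b1 and Atf6 differed by less than the spread between replicates, Ddit3 overlapped, and Xbp1 was lower. The quasi-likelihood test of edgeR called 0 of the 10 genes at an adjusted p under 0.05, where it called 0.43% of all tested genes, 0.227% higher and 0.203% lower. With no filter on low counts it called Asns (edgeR adjusted p = 0.0209) and Trib3 (edgeR adjusted p = 0.0308), in a fit that called 3.74% of all genes. At an unadjusted p under 0.05 it had 5 of the 10 genes higher and 0 lower, against 10.4% and 11.5% of all tested genes. DESeq2 called the same 5 higher, against 5.39% of the genes it gave an adjusted p, and 0 lower, against 6.27%. Of the 10 genes limma-voom called 0, where it called 0.0405% of all genes. Limma on log2 FPKM also called 0 of them, where it called 1% of all genes with a pseudocount of 1 and 0.624% with 0.1. The groups did not overlap for 5 genes higher and 1 lower, where 27.9% and 28.6% of all tested genes did so, 56.4% in either direction. Of the 10 genes 8 had a log2 fold change above 0, where 49.8% of all tested genes did. The 10 genes had a median log2 fold change of 0.79, against -0.003 over all tested genes.

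**Figure D1:**
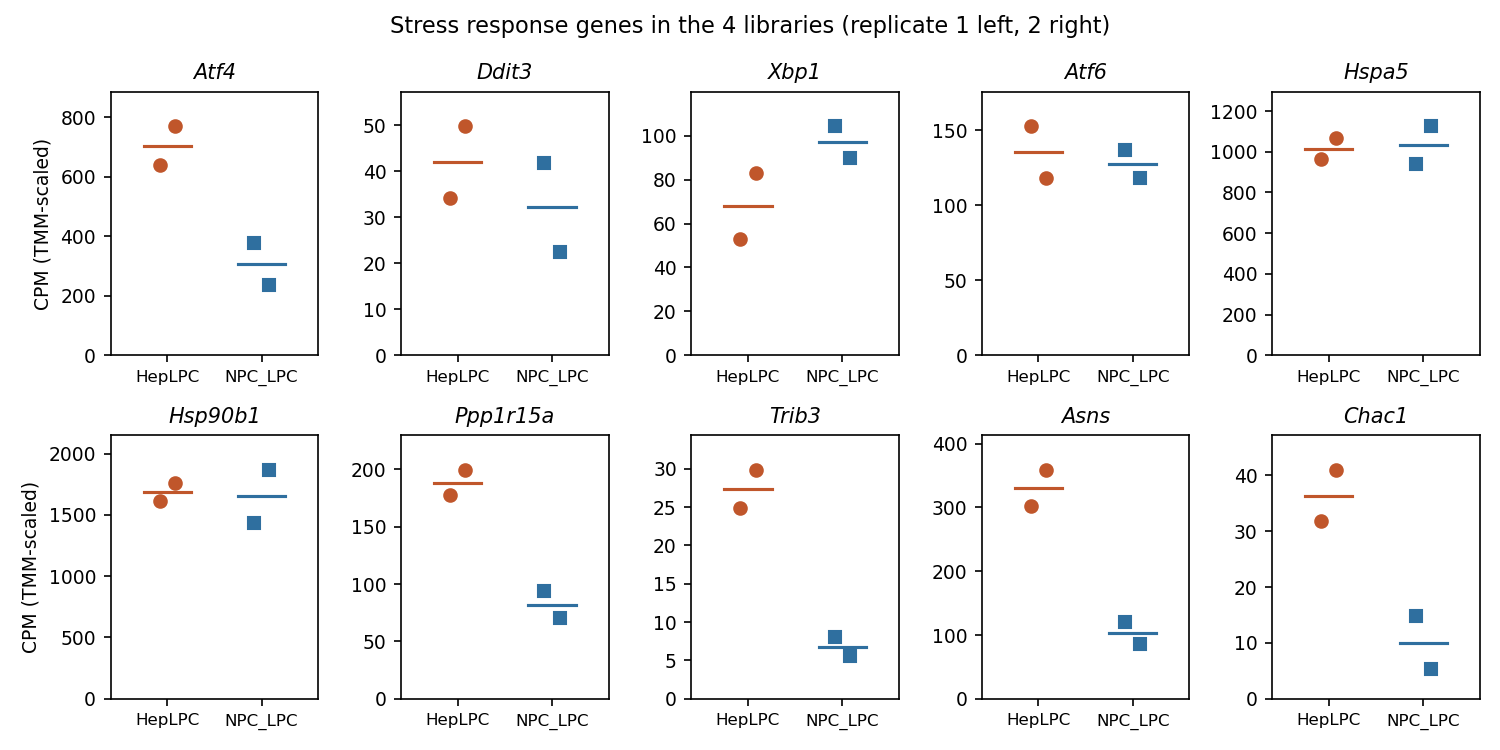
CPM (counts scaled by library size and TMM factor) of the 10 genes in each library, HepLPC as circles and NPC_LPC as squares, replicate 1 left of replicate 2, with a line at the group mean and every axis starting at 0. Atf4, Ppp1r15a, Trib3, Asns and Chac1 had both HepLPC libraries above both NPC_LPC libraries, while Hspa5 lay between 939 and 1125 CPM in all 4.

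Atf4 encodes the transcription factor at the centre of the integrated stress response (chromosome 15, 80255184 to 80257545). It reached 637 and 769 CPM in replicates 1 and 2 of HepLPC, against 376 and 235 CPM in replicates 1 and 2 of NPC_LPC. The lowest HepLPC library stood above the highest NPC_LPC library, and the means were 703 ± 92.8 CPM in HepLPC and 305 ± 99.6 CPM in NPC_LPC (SD, n = 2 each). The log2 fold change was 1.20 (SE 0.32, edgeR adjusted p = 0.125, DESeq2 adjusted p = 0.0105). Chromosome 15 had the highest median of the 20 chromosomes, 0.64 over its 493 tested genes. Relative to that median the log2 fold change of Atf4 was 0.56. What moved the chromosome was not tested, and no other of the 10 genes lies on it.

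Asns makes asparagine and is a classic ATF4 target (chromosome 6, 7675165 to 7693209). It had 302 and 359 CPM in HepLPC, against 121 and 86.1 CPM in NPC_LPC. Both HepLPC libraries were far above either NPC_LPC library, with a log2 fold change of 1.67 (SE 0.28, edgeR adjusted p = 0.074, DESeq2 adjusted p = 1.9e-05). Asns had the smallest edgeR p of the 10 genes and was 199th of the 12332 tested genes by p.

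Chac1 encodes an enzyme that degrades glutathione (chromosome 2, 119351242 to 119354326). Its counts were 572 and 728 in HepLPC, or 31.8 and 41.0 CPM, against 270 and 107 in NPC_LPC, or 14.8 and 5.30 CPM. The groups did not overlap, and the NPC_LPC libraries differed 2.80-fold from each other, the widest replicate gap among the 10 genes. The log2 fold change was 1.86 (SE 0.54, edgeR adjusted p = 0.142). Without NPC_LPC replicate 1 it was 2.80 and past the threshold (edgeR adjusted p = 0.0413), in a fit that called 2.95% of all genes, and across the alternatives its adjusted p ran between 0.0114 and 0.311. Without NPC_LPC replicate 2 it was 1.30.

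Trib3 encodes a pseudokinase that is induced by ATF4 and CHOP and dampens ATF4 activity (chromosome 2, 152337425 to 152344060). It was at 24.8 and 29.9 CPM in HepLPC, against 8.01 and 5.59 CPM in NPC_LPC. Both HepLPC libraries stood above both NPC_LPC libraries. The log2 fold change was 2.01 (SE 0.36, edgeR adjusted p = 0.0763, DESeq2 adjusted p = 6.8e-05), and 3.63% of tested genes had a higher one. Ppp1r15a, whose product brings a phosphatase to eIF2 and so ends the response (chromosome 7, 45522917 to 45526268), was at 177 and 199.6 CPM in HepLPC. In NPC_LPC it was at 93.9 and 70.3 CPM. Every HepLPC value was well above both of these, with a log2 fold change of 1.20 (SE 0.25, edgeR adjusted p = 0.0917, DESeq2 adjusted p = 0.0032).

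Ddit3 encodes CHOP, the factor linked to death under lasting stress, and is another ATF4 target (chromosome 10, 127290793 to 127296291). It was at 34.2 and 49.7 CPM in HepLPC, against 41.8 and 22.5 CPM in NPC_LPC. The groups overlapped and each had a replicate gap of 1.46-fold or more. The log2 fold change was 0.38 (SE 0.39, edgeR adjusted p = 0.599). It was 0.92 without NPC_LPC replicate 1, 0.005 without NPC_LPC replicate 2, 0.64 without HepLPC replicate 1 and 0.087 without HepLPC replicate 2. The difference between Ddit3 and the other ATF4 targets was not tested.

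**Figure D2:**
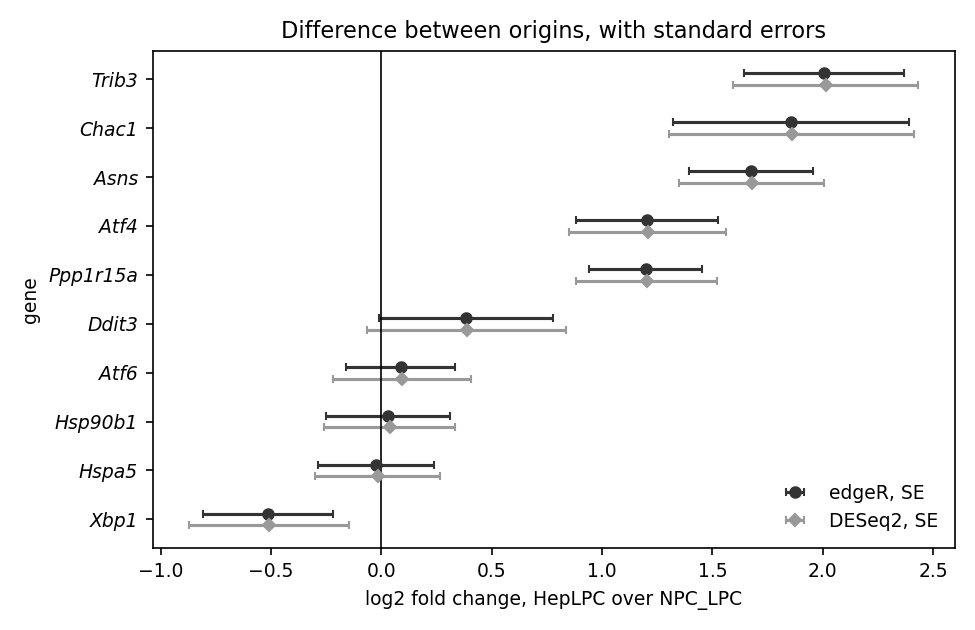
Log2 fold change of each of the 10 genes, HepLPC over NPC_LPC, from edgeR (circles) and DESeq2 (diamonds), with bars of 1 standard error. The 5 genes at the top lie between 1.20 and 2.01, and Ddit3, Hspa5, Hsp90b1 and Atf6 lie within 1 standard error of 0.

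Among the 10 genes, the ER-resident chaperones Hspa5 and Hsp90b1 gave no difference beyond the replicate spread. Hspa5, the main Hsp70 chaperone of the ER (chromosome 2, 34772090 to 34776529), was at 962 and 1068 CPM in HepLPC, against 939 and 1125 CPM in NPC_LPC. The NPC_LPC values enclosed both HepLPC values, and the log2 fold change was -0.02 (SE 0.26, edgeR adjusted p = 0.971). Hsp90b1, the Hsp90 chaperone of the ER (chromosome 10, 86690841 to 86705444), was at 1610.3 and 1761 CPM in HepLPC, against 1433 and 1867 CPM in NPC_LPC. Its log2 fold change was 0.03 (SE 0.28, edgeR adjusted p = 0.965), again with both HepLPC values between those of NPC_LPC. Hsp90b1 overlaps the antisense 1810014B01Rik and the same-strand Gm15344, and how reads were divided between them was not tested. The log2 fold change of Asns was 1.67 (SE 0.28, edgeR adjusted p = 0.074), and its difference from these chaperones was not tested.

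The sensor gene Atf6 (chromosome 1, 170704457 to 170868585) differed little as well. It was at 153 and 118 CPM in HepLPC, against 137 and 119 CPM in NPC_LPC. The groups overlapped, with a log2 fold change of 0.09 (SE 0.25, edgeR adjusted p = 0.864). Xbp1, the transcription factor downstream of IRE1 (chromosome 11, 5520641 to 5525993), had lower values in HepLPC with groups that did not overlap. It was at 53.04 and 83.02 CPM in HepLPC, against 104 and 89.8 CPM in NPC_LPC. HepLPC replicate 2 and NPC_LPC replicate 2 were close, and the log2 fold change of -0.51 (SE 0.29, edgeR adjusted p = 0.361) became -0.21 without HepLPC replicate 1 and -0.87 without HepLPC replicate 2.

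Other genes of the pathways were counted in lists of known pathway members, each without the 10 genes above. A few genes belong to more than one list, and the lists too were chosen with earlier results of these data known. The counts of each list stand against the shares over all tested genes, of which 49.8% had a log2 fold change above 0, and 27.9% had both HepLPC libraries above and 28.6% both below both NPC_LPC libraries. At an unadjusted p under 0.05 the shares were 10.4% higher and 11.5% lower, and by DESeq2 5.39% and 6.27%. Of the 10 pathway lists the ATF4 targets for amino acid synthesis and transport had the highest median. Of its 20 tested genes 18 had a log2 fold change above 0, and 15 were at 1 or more, where 9.74% of all tested genes were. The median was 1.38, against -0.003 over all tested genes. EdgeR called 0 over all genes, 15 were higher and 1 lower at an unadjusted p under 0.05, and DESeq2 called 14 higher and 0 lower. Phgdh, the entry enzyme of serine synthesis and the most abundant of the list, was at 717 and 798 CPM in HepLPC, against 267 and 222 CPM in NPC_LPC, with a log2 fold change of 1.63 (SE 0.26, edgeR adjusted p = 0.0656). Psat1, which acts next in that pathway, was at 390 and 670.2 CPM in HepLPC, against 157 and 112 CPM in NPC_LPC. Cth, which makes cysteine from cystathionine, was at 24.7 and 46.6 CPM in HepLPC, against 8.83 and 7.28 CPM in NPC_LPC. The glycine transporter gene Slc6a9 was at 22.7 and 37.7 CPM in HepLPC, against 10.7 and 2.72 CPM in NPC_LPC. For all 4 genes the groups did not overlap.

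Not every gene of that list was higher, and the genes of this paragraph were picked after their values were seen. The cystine transporter gene Slc7a11 was at 114 and 69.5 CPM in HepLPC, between the 162 and 32.03 CPM of NPC_LPC, with a log2 fold change of -0.08 (SE 0.72). Cbs, which makes cystathionine, was at 4.998 and 4.731 CPM in HepLPC, against 11.2 and 9.50 CPM in NPC_LPC, with a log2 fold change of -1.09 (SE 0.40, edgeR adjusted p = 0.199). The heavy chain gene Slc3a2, whose product pairs with several amino acid transporters, was at 616 and 1042 CPM in HepLPC, against 338 and 163 CPM in NPC_LPC. Mthfd2 and Shmt2, of mitochondrial folate metabolism, had log2 fold changes of 1.65 (SE 0.23) and 1.498 (SE 0.28).

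Regulatory and signalling targets of ATF4 formed another list. Of 16 tested genes 13 had a log2 fold change above 0 with a median of 0.75, 1 rose by the edgeR test over all genes, and DESeq2 called 6 higher and 0 lower. The gene that rose was Atf3, a stress-induced repressor that can be switched on by ATF4 and by other signals. It was at 62.03 and 72.5 CPM in HepLPC, against 8.72 and 9.01 CPM in NPC_LPC, with a log2 fold change of 2.92 (SE 0.27, edgeR adjusted p = 0.0413). Stc2, a secreted glycoprotein gene, was at 21.9 and 6.42 CPM in HepLPC, against 3.84 and 0.743 CPM in NPC_LPC, and Ndrg1 was at 133 and 287 CPM in HepLPC, against 44.0 and 63.1 CPM in NPC_LPC. Ndrg1 lies on chromosome 15. The abundant Cdkn1a, a cell cycle inhibitor that p53 also controls, and Ddit4, an inhibitor of mTORC1 signalling, overlapped between origins, with log2 fold changes of 0.24 (SE 0.28) and -0.15 (SE 0.36).

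The cytosolic aminoacyl-tRNA synthetases, many of which are ATF4 targets, were nearly all on one side by a smaller amount. Of 20 tested genes 19 had a log2 fold change above 0 and 17 had both HepLPC libraries above both NPC_LPC libraries, where 49.8% and 27.9% of all tested genes did. The median was 0.67, edgeR called 0 over all genes, 13 were higher and 0 lower at an unadjusted p under 0.05, and DESeq2 called 5 higher and 0 lower. Tars, for threonine, was at 469 and 665 CPM in HepLPC, against 227 and 202 CPM in NPC_LPC, and also lies on chromosome 15. Lars, for leucine, was at 287 and 273 CPM in HepLPC, against 127 and 139.8 CPM in NPC_LPC, and Nars, for asparagine, at 963 and 970.2 CPM in HepLPC, against 580.2 and 547 CPM in NPC_LPC. Summed over the list, HepLPC libraries had 7090.5 and 6929 CPM and NPC_LPC libraries 4405 and 4199 CPM.

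**Figure D3:**
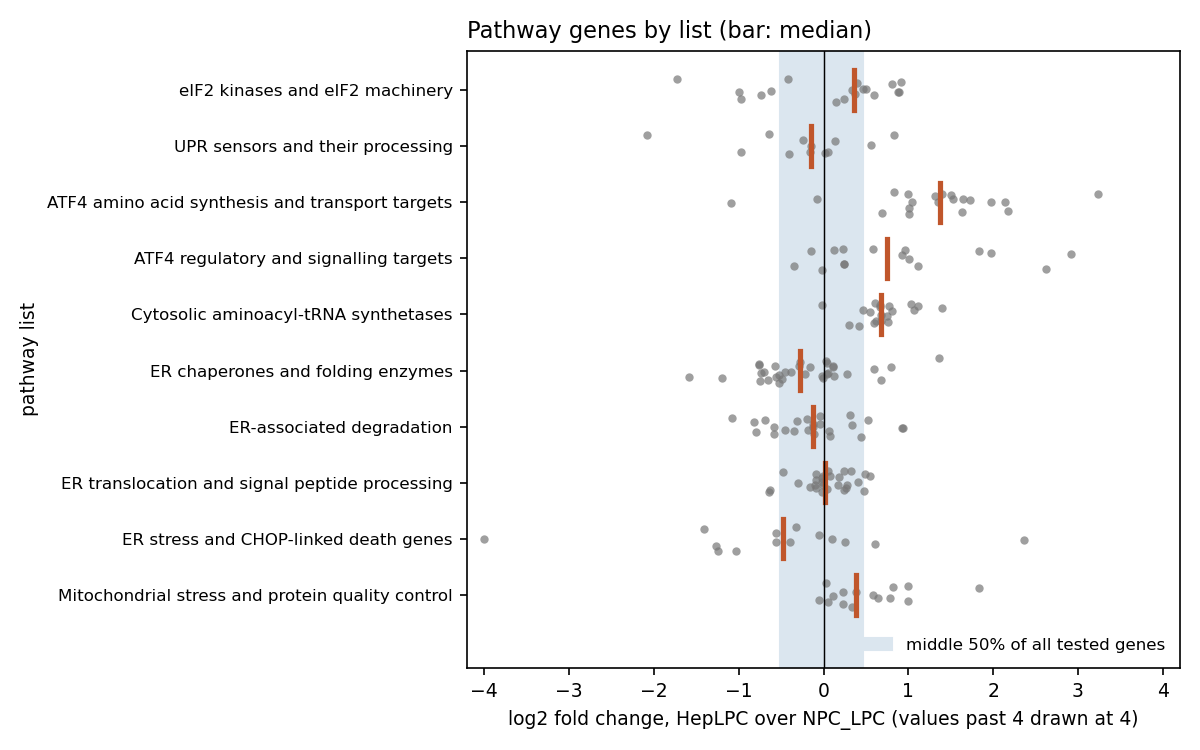
Log2 fold change, HepLPC over NPC_LPC, of every tested gene of 10 pathway lists without the 10 genes above (points), the list median (bar) and the middle 50% of all tested genes (band, -0.51 to 0.47). The amino acid targets of ATF4 have a median of 1.38, and the 3 lists of ER folding, degradation and translocation have medians between -0.27 and 0.02.

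The ER lists had medians near 0 or slightly below it. For 18 of 33 chaperone genes both HepLPC libraries were below both NPC_LPC libraries, and for 4 above. Of all tested genes 28.6% and 27.9% did so. Among 24 degradation genes 11 were below and 6 above in this way, and among 28 translocation genes 2 and 8. Among 33 other ER chaperones and folding enzymes 12 had a log2 fold change above 0 and 21 below, with a median of -0.27 that was -0.11 without NPC_LPC replicate 2 and -0.17 without HepLPC replicate 1. Both edgeR over all genes and DESeq2 called 0, and at an unadjusted p under 0.05 edgeR had 1 higher and 3 lower. Pdia3, a disulphide isomerase for glycoproteins, was at 1216 and 1303 CPM in HepLPC, against 1329 and 1603 CPM in NPC_LPC. The calcium-binding chaperone gene Calr was at 1753 and 1987 CPM in HepLPC, against 2151 and 2374 CPM in NPC_LPC. Among those with a mean of at least 5 CPM and non-overlapping groups, the largest differences were in the peptidyl-prolyl isomerase genes Fkbp14 and Fkbp7, with log2 fold changes of -1.59 (SE 0.63) and -1.19 (SE 0.43), and Fkbp11, on chromosome 15, with 1.36 (SE 0.78). Genes of ER-associated degradation had a median of -0.12 over 24 tested, 8 above 0 and 16 below, and edgeR called 0 over all genes. At an unadjusted p under 0.05 edgeR had 1 of these genes higher and 2 lower. DESeq2 called 1 lower, Edem1, which directs misfolded glycoproteins to degradation and is a target of spliced XBP1. Edem1 was at 35.9 and 49.96 CPM in HepLPC, against 83.05 and 98.96 CPM in NPC_LPC, with a log2 fold change of -1.08 (SE 0.27, edgeR adjusted p = 0.116, DESeq2 adjusted p = 0.0198). By the same rule as for the Fkbp genes, Derl1 and Herpud1 came next, both higher in HepLPC. Derl1, on chromosome 15, was at 117 and 179 CPM in HepLPC, against 86.8 and 67.9 CPM in NPC_LPC. Herpud1 was at 211 and 211 CPM in HepLPC, against 157 and 65.0 CPM in NPC_LPC. Their log2 fold changes were 0.94 (SE 0.30) and 0.93 (SE 0.43). Translocation and signal peptide processing genes divided evenly, 14 above 0 and 14 below, with a median of 0.02 and 0 called by edgeR or DESeq2, and 0 higher and 1 lower at an unadjusted p under 0.05.

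**Figure D4:**
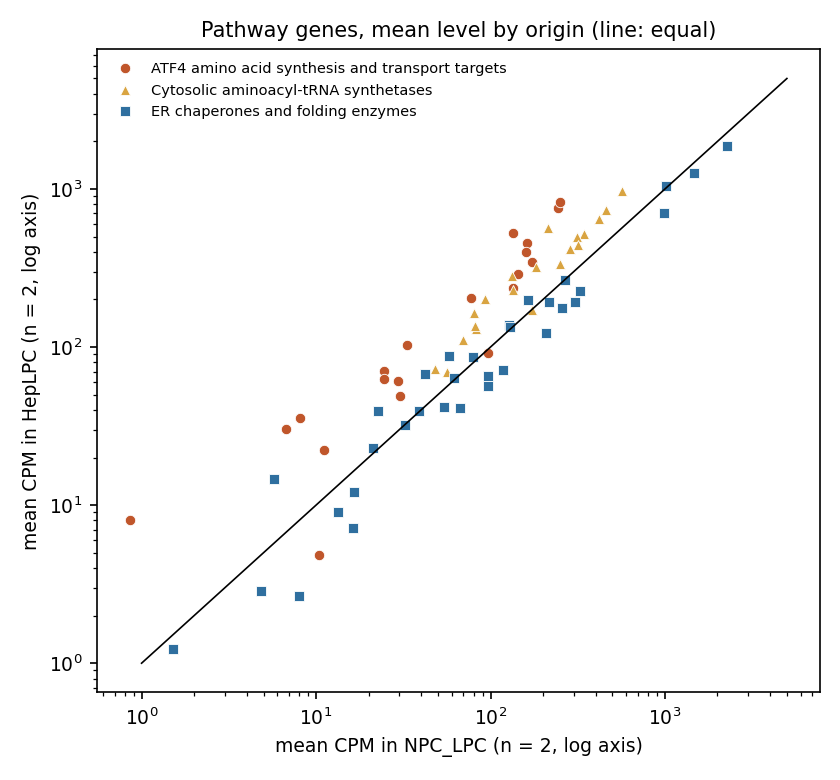
Mean CPM in HepLPC (vertical, log axis) against mean CPM in NPC_LPC (horizontal, log axis), n = 2 each, for the tested genes of 3 lists, with a line of equal level. Means were higher in HepLPC for 18 of 20 amino acid targets of ATF4 and 19 of 20 aminoacyl-tRNA synthetases, and for 12 of 33 ER chaperones.

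Upstream, the kinases that phosphorylate eIF2 had values on both sides. Eif2ak3 (PERK) was at 26.0 and 33.5 CPM in HepLPC, against 65.8 and 50.8 CPM in NPC_LPC, with a log2 fold change of -0.97 (SE 0.29, edgeR adjusted p = 0.147). Eif2ak2 (PKR), an interferon-induced gene, was at 59.6 and 63.03 CPM in HepLPC, against 125 and 279.8 CPM in NPC_LPC, with a log2 fold change of -1.72 (SE 0.41, edgeR adjusted p = 0.107, DESeq2 adjusted p = 0.0021). A list of 16 interferon-induced genes had lower values in HepLPC as well. It summed to 82.1 and 106 CPM in HepLPC and to 509 and 1962 CPM in NPC_LPC. The part of this list in the Eif2ak2 values was not tested. Of its genes 1, Oas3, fell by the edgeR test over all genes. All 16 were lower at an unadjusted edgeR p under 0.05, against 11.5% of all tested genes. DESeq2 called all 16 lower, against 6.27% of the genes it gave an adjusted p. Eif2ak4 (GCN2) and Eif2ak1 (HRI), named outside the rule, had log2 fold changes of -0.42 (SE 0.25) and 0.34 (SE 0.22). Impact, an inhibitor of GCN2 activation, was at 46.8 and 37.5 CPM in HepLPC, against 105 and 63.9 CPM in NPC_LPC. The genes for eIF2 subunits Eif2s2 and Eif2s3x had higher values in HepLPC, with log2 fold changes of 0.89 (SE 0.26) and 0.91 (SE 0.29) and DESeq2 adjusted p of 0.0279 and 0.0487. Over the 18 genes of eIF2 kinases and machinery the median was 0.35, edgeR called 0 over all genes, 5 were higher and 3 lower at an unadjusted p under 0.05, and DESeq2 called 3 higher and 1 lower.

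The list of sensors and their processing enzymes, which also holds Eif2ak3, had a median of -0.15 over 12 tested genes. EdgeR called 0 over all genes. At an unadjusted p under 0.05 edgeR had 1 higher and 2 lower, the latter being Eif2ak3 again and Creb3l1. DESeq2 called 1 lower. That gene was Creb3l1, a membrane-bound transcription factor related to ATF6 and linked to collagen secretion. It was at 6.28 and 5.97 CPM in HepLPC, against 30.1 and 21.7 CPM in NPC_LPC, with a log2 fold change of -2.08 (SE 0.35, edgeR adjusted p = 0.074, DESeq2 adjusted p = 3.2e-05). Tmbim6, an ER membrane protein that restrains IRE1, was at 621 and 927 CPM in HepLPC, against 430.05 and 437 CPM in NPC_LPC, and lies on chromosome 15.

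Death genes linked to ER stress were few and varied. Of 14 tested genes 4 had a log2 fold change above 0, where 49.8% of all tested genes did, and 10 below. In all, 5 were at -1 or less, where 12.7% of all tested genes were, and 1 was at 1 or more. The median of -0.48 was -0.29 without HepLPC replicate 1, -0.19 without NPC_LPC replicate 2 and -0.18 relative to chromosome medians. EdgeR called 0 over all genes, 2 were higher and 3 lower at an unadjusted p under 0.05, and DESeq2 called 1 higher and 1 lower. Casp12, a caspase of the ER membrane in rodents, had no count in either HepLPC library and was at 4.28 and 18.4 CPM in NPC_LPC. With 3 counts per library taken as the floor, it was at least 67.5-fold lower in HepLPC than the NPC_LPC mean, and at least 25.5-fold lower than NPC_LPC replicate 1 alone. Trib1, a relative of Trib3 without an established part in ER stress, was at 321 and 259 CPM in HepLPC, against 65.9 and 46.98 CPM in NPC_LPC, with a log2 fold change of 2.36 (SE 0.29, edgeR adjusted p = 0.0504), and is on chromosome 15. Pmaip1 and Bak1, which promote mitochondrial permeabilisation, had log2 fold changes of -0.40 (SE 0.24) and -0.33 (SE 0.28).

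Mitochondrial stress and protein quality control genes were on the HepLPC side for 14 of 15 tested, with a median of 0.38, 0 called by edgeR over all genes, 5 higher and 0 lower at an unadjusted p under 0.05, and 2 called higher by DESeq2. Atf5, a relative of Atf4 that is translated in the same way under stress, was at 211 and 235 CPM in HepLPC, against 85.3 and 39.8 CPM in NPC_LPC, with a log2 fold change of 1.84 (SE 0.40, edgeR adjusted p = 0.0947, DESeq2 adjusted p = 6.1e-04). The matrix protease gene Lonp1 was at 249 and 413 CPM in HepLPC, against 167 and 164 CPM in NPC_LPC. The matrix chaperones Hspd1 and Hspa9 had log2 fold changes of 0.82 (SE 0.31) and 0.64 (SE 0.29).

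Matches to the promoter elements were also counted in the lists. The C/EBP-ATF element was in 6 of 15 regulatory ATF4 targets with a promoter in the table, among them Atf3, in 3 of 12 aminoacyl-tRNA synthetase genes, among them Tars, and in 2 of 15 amino acid targets. The same element was in 2 of 17 genes of ER-associated degradation, 2 of 26 ER chaperone genes and 1 of 14 eIF2 genes. It was in 3.91% of all 27025 genes with a promoter. The ERSE was in 5 of 26 ER chaperone genes, Calr among them, 2 of 17 degradation genes and 1 of 14 eIF2 genes. Of all genes with a promoter 0.13% held it. Some genes count in more than 1 list. Dnajc3 is both the eIF2 gene and 1 of the chaperone genes with an ERSE. Herpud1 counts for the C/EBP-ATF element among both the regulatory targets and the degradation genes. Counts of the remaining motifs in the lists are not given. These shares are descriptions.

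Values of other gene groups are given beside these. Immediate early and handling genes, which include signal-induced genes such as Fos and Zfp36, summed to 2724 and 3327 CPM in HepLPC and to 1342 and 1634 CPM in NPC_LPC. All 21 had a log2 fold change above 0, with a median of 1.58, and 1, Zfp36, rose by the edgeR test over all genes. Of the 21, 14 were at 1 or more, where 9.74% of all tested genes were. At an unadjusted p under 0.05 edgeR had 13 of them higher and 0 lower, and DESeq2 called 12 higher and 0 lower. Cell cycle genes summed to 4427 and 2866 CPM in HepLPC and to 1624 and 2858 CPM in NPC_LPC, all 20 with a log2 fold change above 0, a median of 0.65, 0 called by edgeR over all genes and 2 called higher by DESeq2. The second replicates nearly met in this sum. The part of these groups in the stress response differences was not tested. Hepatocyte markers other than Hnf4a had 95 counts or fewer in every library. Cyp2e1 was at 0 in all 4 libraries, and Alb at 41 and 2 counts in HepLPC and 2 and 3 counts in NPC_LPC. Apoa1 had 95 and 16 counts in HepLPC and 0 and 0 in NPC_LPC, and Ttr 22 and 27 against 0 and 1. The 3 markers with enough reads to test, Hnf4a, Apoa1 and Ttr, were called higher in HepLPC by DESeq2, and 0 by edgeR over all genes. The list of 7 hepatocyte markers summed to 244 and 252 CPM in HepLPC and to 27.7 and 50.05 CPM in NPC_LPC, nearly all of it Hnf4a. The 5 leukocyte markers summed to 24.9 and 15.2 CPM in HepLPC and to 81.6 and 21.4 CPM in NPC_LPC, most of it Cd68, with Clec4f at 0 and Ptprc at 5 counts or fewer. Csf1r went the other way, at 3.05 and 1.86 CPM in HepLPC, against 1.76 and 0.792 CPM in NPC_LPC. The 5 endothelial markers summed to at most 7.16 CPM, with Pecam1 at 1 count or fewer, and the 7 stellate cell and fibroblast markers to at most 16.4 CPM, with Lrat at 0. Of the latter, Reln was at 8.77 and 5.41 CPM in HepLPC, against 0.494 and 1.14 CPM in NPC_LPC. Acta2 and Col3a1 had 46 and 21 counts in NPC_LPC replicate 2 and 0 elsewhere. The 6 bile duct markers summed to 4772 and 2214 CPM in HepLPC and to 9504 and 4783 CPM in NPC_LPC. Spp1 was the largest part of this sum in every library (3024 and 904 CPM in HepLPC, 8939 and 4201 CPM in NPC_LPC). The 6 markers went both ways, 3 with a log2 fold change above 0 and 3 below. Krt19 was at 1434 and 885 CPM in HepLPC, against 111 and 275 CPM in NPC_LPC, and Krt7 was higher in HepLPC as well. The 4 mesothelial markers summed to 199 and 788 CPM in HepLPC and to 579 and 232 CPM in NPC_LPC. In bulk libraries fewer cells of a type and less RNA per cell cannot be told apart.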

How the data were processed

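RNA of 4 libraries of cultured mouse cells was sequenced from stranded, paired-end messenger RNA libraries, per the labels' protocols. Reads were handled with HISAT2, HTSeq, Cufflinks, Trimmomatic and DESeq on build mm10, per the submitters' processing notes. For tool versions, annotation and the strand setting no value is given in the sources used here. The authors deposited, per the file headers, a read count and an FPKM value for each gene symbol. The deposited counts were whole numbers. Titles decided the grouping, since the cell type label of HepLPC names both hepatocytes and non-parenchymal cells. Main results use the counts, and FPKM serves for levels between genes and as an alternative.

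CPM values used library totals times TMM factors. Genes passing filterByExpr (12332) were tested with edgeR 4.0.16 in R 4.3.3, group as the only term, Benjamini-Hochberg adjusted over all tested genes with a threshold of 0.05. Standard errors were derived from the F statistic. The test was checked on simulated data. Gene positions came from RefSeq (GRCm38.p6, matching 97.4% of rows) and exon lengths and overlaps from GENCODE M21. A floor of 3 counts was used for genes with no count, and it covers counting error only.

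The alternatives were other scalings and filters, DESeq2 1.42.0, limma 3.58.1 (voom, and log2 FPKM with pseudocounts of 1 or 0.1), a replicate block, leaving out each library, a threshold of 0.01, and subtracting chromosome medians. Added after seeing the data were levels per kilobase of annotated exons and the Casp12 floor against single libraries. The 10 genes and the lists were chosen with earlier results of these data known. From each list the text names genes past the threshold, the 3 with the largest difference among those with a mean of at least 5 CPM and non-overlapping groups, and the 2 most abundant. Of these the text gives a part.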

Additional observations from a re-analysis of the deposited data

How the results depend on the processing

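The 5 genes higher in HepLPC (Atf4, Ppp1r15a, Trib3, Asns and Chac1) kept their direction in each of 16 alternatives, and so did Ddit3 and, lower, Xbp1. The 10 genes had 0 calls by edgeR, 2 with no filter on low counts, 5 with DESeq2 and 0 to 1 when a library was left out. Over all genes the 53 calls became 593 with no filter, 1523 with DESeq2, 5 with limma-voom, 0 to 377 when a library was left out, 111 with limma on log2(FPKM + 1), 0 with that test without a filter and 0 at an adjusted p under 0.01. The calls over all genes were 0 without either HepLPC library, 377 without NPC_LPC replicate 1 and 107 without NPC_LPC replicate 2, each fit assuming that the lone library varies like those of the other group. With the replicate block there were 136 calls over all genes and 0 among the 10. Labels state no pairing of same-numbered libraries, and the deviations of such libraries from their group means had an r of -0.05. With 2 libraries a group this value cannot settle whether they share a mouse, culture or batch. Genes near 0 changed sign. Leaving out a library gave -0.094 to 0.26 for Atf6, -0.13 to 0.11 for Hspa5 and -0.13 to 0.23 for Hsp90b1. Hspa5 was 1.0e-04 or 1.1e-04 on log2 FPKM, and Hsp90b1 was -0.14 relative to its chromosome. The cause was not tested. Over the alternatives the list medians ran from 1.20 to 1.53 for the amino acid targets, 0.61 to 0.74 for the synthetases, 0.52 to 0.997 for the regulatory targets, 0.29 to 0.57 for the mitochondrial genes, 0.27 to 0.39 for the eIF2 genes, 0.016 to 0.13 for translocation, -0.199 to -0.035 for the sensors, -0.34 to -0.11 for the chaperones, -0.29 to -0.040 for degradation and -0.598 to -0.18 for the death genes. They ran from 0.96 to 2.05 for immediate early genes, 0.32 to 1.10 for cell cycle genes and -7.05 to -2.84 for interferon-induced genes. Each of the 10 genes had 107 or more counts in every library, and 2 libraries a group limit the precision.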
